A study of Drosophila melanogaster with 4 samples.

Results

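Cytochrome P450 genes of families 6, 9 and 28 were followed in male Drosophila heads after feeding of ethosuximide, a drug against absence seizures that blocks T-type calcium channels, and after normal food. The genes are Cyp6a20, Cyp6d4, Cyp6d5, Cyp6v1, Cyp28d1, Cyp28d2 and Cyp9b1. They were chosen by whether a spot that carries their name and no other had a value on at least 1 array. They are 7 of the 3769 named genes with a value, and of the 6793 named genes on the array. The size of the ratio was not part of that rule, but the 7 were picked out with earlier results of these data known. That rule alone does not set them apart. Another 10 genes of the same P450 clan also met it, all but Cyp310a1 from families 6 and 9. These 10 serve below as neighbours for comparison.

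The flies were unmated Oregon-R wild type males, 10 to 11 days old at the start and kept at 30 per vial. For 3 days they received food with 3.48 mg/ml of ethosuximide or normal food. Each of 4 spotted cDNA arrays of 2 colours set a pool of heads from the drug vials against a separate pool from the normal food vials, so that 1 array is 1 biological replicate. The drug sample carried Cy5 on arrays 1 and 2 and Cy3 on arrays 3 and 4.

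P450 enzymes are haem proteins that use oxygen and electrons from a reductase to oxidise small molecules. In insects the families described here belong to clan 3, which also holds the vertebrate CYP3 enzymes. Many of its genes act on plant toxins, insecticides and drugs, and some are switched on by such compounds. The fat body, gut and Malpighian tubules are the best known sites of P450 activity in the fly, and a fly head contains fat body as well as brain, eyes and antennae.

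A value below is a cDNA clone's log2 ratio, drug over normal food, averaged over its pair of neighbouring spots and centred on the array's median. Zero therefore stands for the typical feature of the array. A ratio gives no level, so genes cannot be ranked by abundance. The direction of the ratios is unsettled. The labels list Cy5 as the first and Cy3 as the second channel, so a deposited value was read as Cy5 over Cy3 and arrays 3 and 4 had their sign turned. The numerator is not stated, and neither is whether the dye-swapped columns had been turned before deposit. If they had been, every value from arrays 3 and 4 below would change sign. If the numerator were Cy3, all values would.

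After the authors' spot filters, 5095, 3169, 1101 and 812 of 13824 features had a value on arrays 1 to 4, and 980 had one on at least 3 arrays. The median absolute difference between paired spots lay between 0.125 and 0.237. Over the features tested, turned arrays correlated at 0.525 (arrays 1 and 2) and 0.42 (arrays 3 and 4) within a dye orientation and at 0.051 to 0.238 across orientations, as a description across features. Of the markers on the array, 8 of 9 photoreceptor, 4 of 4 neuronal and 4 of 4 antennal genes had a value. So did 2 of 4 glial, 2 of 4 muscle and 4 of 6 fat body genes. Outside the head, 2 of 3 Malpighian tubule, 1 of 3 midgut and 1 of 3 male reproductive genes had one. Over all named genes the share was 55.5%. In bulk heads, fewer cells of a type and less RNA per cell cannot be told apart.

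The array carried 15 clones of the 7 genes, and 8 of them had a value. Cyp6a20 and Cyp28d1 were each measured on all 4 arrays through a single clone. Cyp6d4 was covered on 3 arrays, but by 2 different clones. Cyp6d5 and Cyp28d2 had values on 2 arrays each, and Cyp6v1 and Cyp9b1 on 1 array each. For 4 of the 7 genes every value came from a single dye orientation. These are Cyp28d2 and Cyp9b1, measured with the drug in Cy5, and Cyp6d5 and Cyp6v1, measured with the drug in Cy3. For these 4 an effect of the drug and an effect of the dye cannot be told apart. The other 7 clones, among them 2 of Cyp28d1 and second clones of Cyp6a20, Cyp6d5, Cyp6v1, Cyp28d2 and Cyp9b1, had no value on any array. The clones just inside the rule, with 1 array, were those of Cyp6v1 (1.09) and Cyp9b1 (1.09) and the second of Cyp6d4 (0.08).

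Of the 17 clone values, which come from 8 clones and so are not independent, 13 were above 0 and 4 were below. Cyp6a20 and Cyp6d5 were above 0 on every array that measured them, Cyp28d2 was below 0 on both of its arrays, and Cyp28d1 lay near 0. On arrays 1 to 4, 4 of 5, 1 of 4, 4 of 4 and 4 of 4 clone values were above 0. Over all features the share above 0 on those arrays was 49.5%, 32.4%, 55.2% and 54.6%. If the swapped columns had been turned before deposit, 5 of the 17 values would be above 0.

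**Figure D1:**
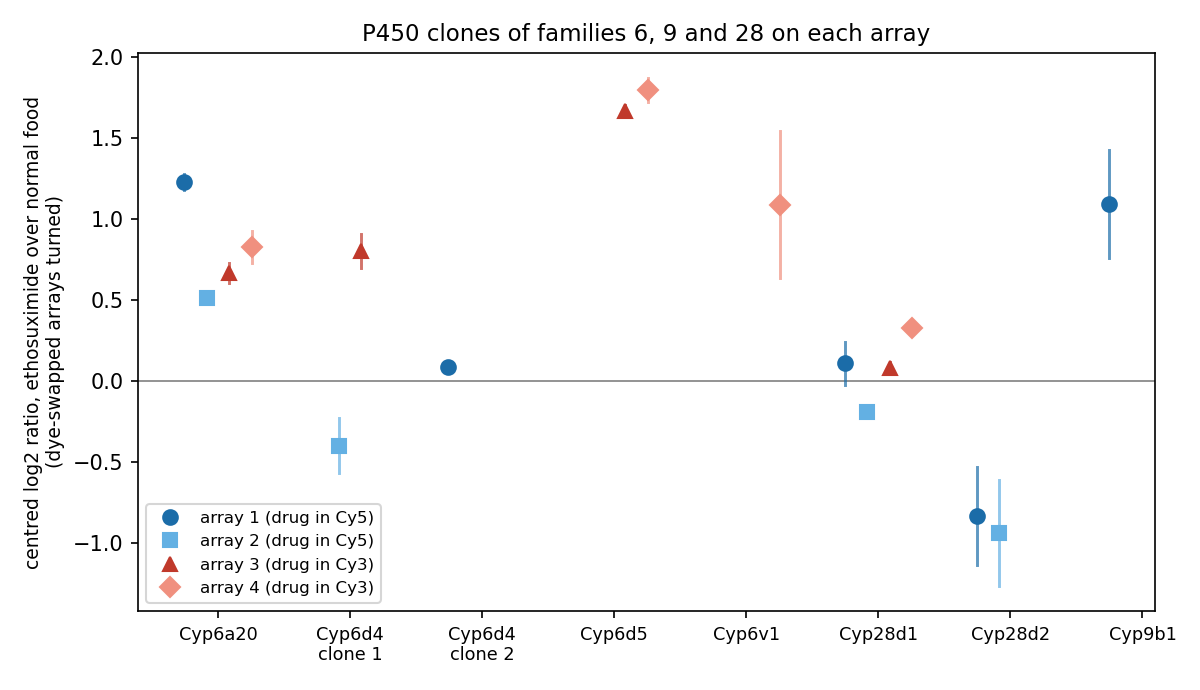
Centred log2 ratio of ethosuximide over normal food (vertical axis) for each clone of the 7 genes (horizontal axis), 1 symbol per array; the line through a symbol joins the values of the 2 spots of the clone. Cyp6a20 lies above 0 on 4 arrays, Cyp6d5 is at 1.66 and 1.80 on the dye-swapped arrays, and Cyp28d2 is at -0.84 and -0.94 on arrays 1 and 2.

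Cyp6a20 is known in the fly for its effect on male aggression, and its transcript has been placed in support cells of the antennal sensilla. Its centred ratio was 1.23, 0.51, 0.66 and 0.83 on arrays 1 to 4. All arrays were above 0, with array 1 the highest. Its paired spots differed by 0.06 to 0.203, so the spread between arrays was larger than that between spots. On array 1 it ranked 23rd from the highest of 5095 features and on array 2 90th of 3169. On arrays 3 and 4, where fewer features passed the filters, it ranked 123rd of 1101 and 78th of 812. The mean was 0.81 ± 0.31 (SD, n = 4), or 1.75-fold, the third highest of the 366 features measured on all 4 arrays.

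In limma's one-class test Cyp6a20 had an adjusted p of 0.0296 over the 980 features (standard error 0.14). It was 1 of the 14 features called, or 1.43% of those tested, and 1 of the 12 called as higher (1.22%). Cyp28d1, the only other clone of the 7 genes with 3 or more arrays, was not called. With 1 of 2 tested clones called, and the genes chosen with this result known, the count says nothing about the group. On the deposited values, which are not centred, the mean of Cyp6a20 was 0.81 ± 0.79 (SD, n = 4), and limma's adjusted p was 0.692, with 0.51% of features called. With the columns taken as already turned, its mean was 0.06 and limma's adjusted p 0.972. Limma then called 0% of features, and 86 had an unadjusted p under 0.05.

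Since all 4 arrays had the same sign, an exact two-sided sign-flip permutation test of Cyp6a20 gave p = 0.125, the smallest that 4 arrays allow. In limma's ordinary test without moderation its unadjusted p was 0.0135 and its adjusted p 0.293. The call was also lost when array 1, 3 or 4 was left out, with limma adjusted p of 0.34, 0.0648 and 0.112. Without array 2 it was kept, at a limma adjusted p of 0.0014, but that fit gave all features 1 shared variance. The mean lay between 0.67 and 0.91 in those 4 fits.

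Cyp6a20 showed a like ratio in both orientations, averaging 0.87 with the drug in Cy5 and 0.74 with the drug in Cy3. Its dye effect, by which each orientation departs from the average of both, was 0.06 ± 0.13 (standard error, limma adjusted p = 0.87), where 0.204% of features were called for the dye. This balance rests on turning the swapped columns, because the other reading exchanges the effects of drug and dye.

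**Figure D2:**
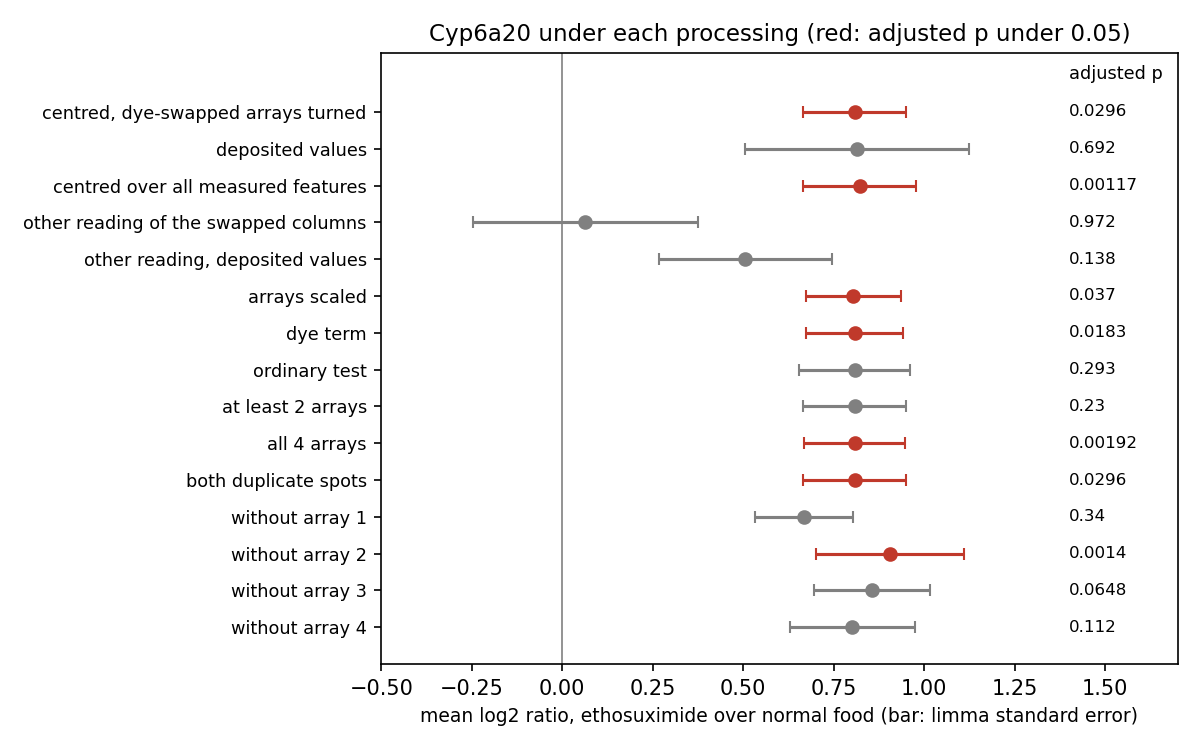
Mean log2 ratio of Cyp6a20 (horizontal axis, bars show limma's standard error) under each processing (vertical axis), with the adjusted p at the right. The mean stays between 0.67 and 0.91 wherever the swapped columns are turned and is 0.06 and 0.51 where they are not; red points are the settings with an adjusted p under 0.05.

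The genes beside Cyp6a20 did not share its ratio on the arrays that measured them. Cyp6a20 lies on arm 2R among other genes of its subfamily, with Cyp6a9 and Cyp6a21 as its immediate neighbours in the RefSeq Release 6 gene order and Cyp6a19 and Cyp6a8 next to those. On array 1, where Cyp6a20 was at 1.23, Cyp6a9 was at 0.42, Cyp6a21 at 0.18 and Cyp6a19 at -0.17. On array 2, Cyp6a20 was at 0.51 and Cyp6a9 at -0.72. None of the 3 clones of Cyp6a8 had a value. Spotted cDNA can bind transcripts of close relatives, so these ratios are uncertain for genes of 1 cluster. The differences have no test, since no neighbour was measured on more than 2 arrays.

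Among 183 named features measured on all 4 arrays, those nearest to Cyp6a20 by root mean square difference were CG4239, pst, CG4716 and Jwa. Their differences were 0.384, 0.458, 0.466 and 0.493 log2 units, against a median of 0.853. CG4239, the nearest, was at 0.53, 0.36, 0.38 and 0.83 on arrays 1 to 4. On array 1, where Cyp6a20 was at 1.23, these 4 features lay between 0.34 (pst) and 0.71 (CG4716).

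Cyp6d5, whose transcript is known from feeding studies in the fly to be induced by phenobarbital and caffeine, had the highest ratio of the 7 genes with the swapped columns turned. It was at 1.66 on array 3 and 1.80 on array 4, with a mean of 1.73 ± 0.09 (SD, n = 2), or 3.32-fold. Its paired spots differed by 0.076 and 0.143. It ranked 8th from the highest of 1101 features on array 3 and 15th of 812 on array 4. The clone had no value on arrays 1 and 2, so there was no test, and with the swapped columns taken as already turned the mean would be -1.73.

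Both arrays that measured Cyp6d5 held it above Cyp6a20, by 1.00 and 0.97; under the other reading it would lie below Cyp6a20 by the same amounts. Only 16 features had values on arrays 3 and 4 alone, and Cyp6d5 was the second highest of them. The highest was Cyp12d1-d, a P450 gene of the mitochondrial clan that was singled out after its values were seen, at 1.97 and 2.74. Of the 44 P450 clones with a value, 4 were measured on swapped arrays alone, and 32 on array 1 or 2 and on neither swapped array. Of all 6347 features with a value, 199 were measured on swapped arrays alone. Array 1 alone measured 2843 features, and arrays 1 and 2 without the swapped arrays measured 1242. The shares of P450 clones and of all features were not compared by a test. On array 1 alone, 1 of the 2 clones of Cyp6d4, the subfamily relative of Cyp6d5, was at 0.08, with spots that differed by 0.009. Its other clone was at -0.40 on array 2 and 0.80 on array 3. The sign of that clone differed between its arrays, and the mean of 0.20 ± 0.85 (SD, n = 2) was smaller than their spread.

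With both clones of Cyp6d4 joined per array, a setting added after seeing the data, the mean was 0.16 ± 0.60 (SD, n = 3) and limma's adjusted p over 515 genes was 0.823. If the swapped columns had been turned before deposit, its first clone would be at -0.40 and -0.80 instead, below 0 on both arrays. On array 3, the one array that measured both genes, Cyp6d5 lay 0.86 above Cyp6d4, or as far below it under that reading.

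Cyp6v1 was measured on array 4 alone, at 1.09, with 6.4% of the features of that array higher. Its paired spots differed by 0.908, the widest gap of the 7 genes. One spot was listed at exactly 0 before centring, the only such value among 1623 on array 4, and the other at -0.91. Centred and turned, they were at 0.63 and 1.54. The value of Cyp6v1 thus rests on a pair of spots that disagree. Of the 118 features measured on array 4 alone it ranked 22nd from the highest.

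**Figure D3:**
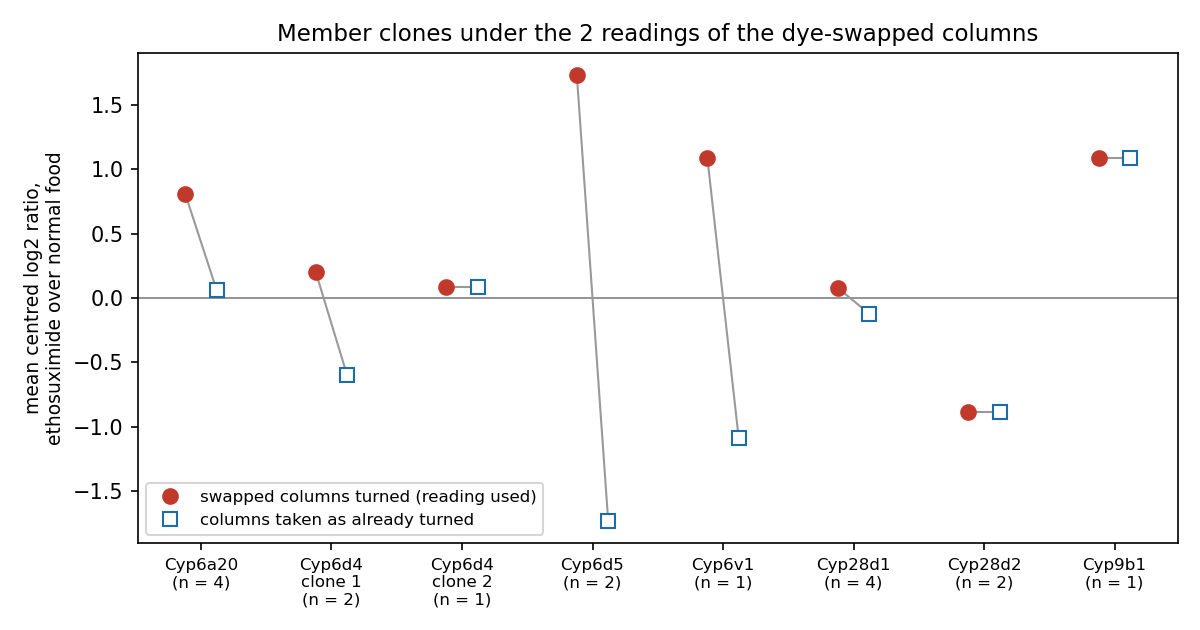
Mean centred log2 ratio of each clone (vertical axis; n is the number of arrays) with the swapped columns turned (filled circles) and with them taken as already turned (open squares). Cyp6d5 goes to -1.73 and Cyp6v1 to -1.09 in the other reading, while Cyp28d2 and Cyp9b1, measured on arrays 1 and 2 alone, stay at -0.89 and 1.09.

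Family 28 showed different ratios for a pair of adjacent genes. Cyp28d1 and Cyp28d2 lie next to each other on arm 2L, and Cyp28d1 has been linked to nicotine resistance in the fly. Cyp28d1 was at 0.11, -0.19, 0.08 and 0.32 on arrays 1 to 4, with a mean of 0.08 ± 0.21 (SD, n = 4). Its arrays went both ways, and limma's adjusted p was 0.86 with a standard error of 0.13. It was above 0 on 3 of the 4 arrays.

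Cyp28d2 was at -0.84 on array 1 and -0.94 on array 2, with a mean of -0.89 ± 0.07 (SD, n = 2), which is a 1.85-fold lower ratio. On those arrays 96.4% and 91.2% of the features were higher. It was the lowest of the 7 genes with the swapped columns turned, but under the other reading Cyp6d5 at -1.73 and Cyp6v1 at -1.09 would be lower. Its paired spots differed by 0.606 and 0.654, more than the typical pair on those arrays, so each value is less precise than the agreement between arrays would show. Of the 1242 features measured on arrays 1 and 2 alone it ranked 35th from the lowest. It lay below Cyp28d1 on both arrays, by 0.94 and 0.74, a difference that 2 arrays in a single dye orientation cannot test.

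With the swapped columns turned, Cyp6a20 was higher than Cyp28d1 on every array, by 1.12, 0.71, 0.59 and 0.50, with a mean difference of 0.73 ± 0.27 (SD, n = 4). The exact two-sided sign-flip permutation test gave p = 0.125, again the smallest that 4 arrays allow. Under the other reading the differences on arrays 3 and 4 would be -0.59 and -0.50, the mean difference 0.19 ± 0.86 (SD, n = 4) and the exact permutation p 0.625. The features nearest to Cyp28d1 in pattern were Spase22-23, Nmda1, ATPsynC and CG18549, with root mean square differences of 0.098, 0.144, 0.144 and 0.156. Its dye effect was -0.12 ± 0.11 (standard error, limma adjusted p = 0.643).

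Cyp9b1 was measured on array 1 alone, at 1.09, and ranked 37th from the highest of 5095 features. Its paired spots were at 0.76 and 1.43, so both were above 0 but 0.669 apart. Cyp6a20 was at 1.23 on the same array. Cyp9b2, its immediate neighbour on arm 2R, had no value on either of its 2 clones. Of the 2843 features measured on array 1 alone Cyp9b1 ranked 26th from the highest.

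**Figure D4:**
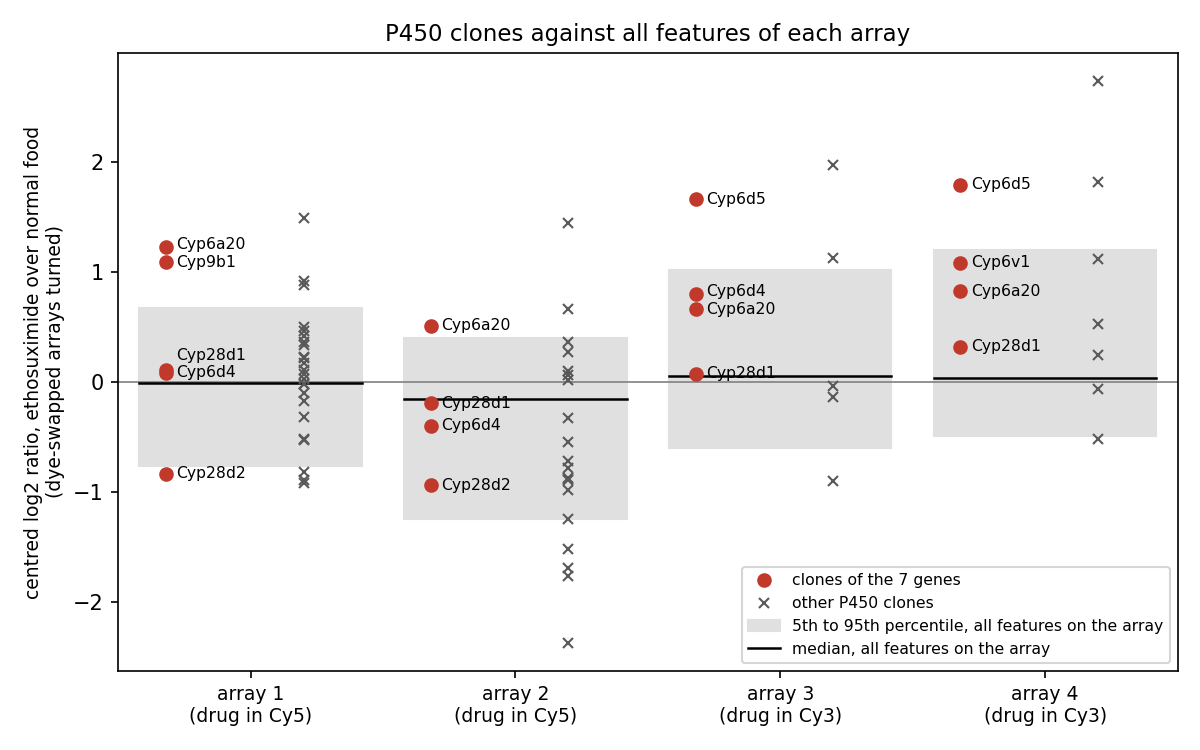
Centred log2 ratio of ethosuximide over normal food (vertical axis) on each array (horizontal axis) for clones of the 7 genes (red points) and for other P450 clones (crosses), with the 5th to 95th percentile range (grey) and median (black line) of all features on the array. Cyp6a20 and Cyp9b1 lie above the grey range on array 1, Cyp6a20 on array 2, and Cyp6d5, with the swapped columns turned, on arrays 3 and 4, while Cyp28d2 lies below it on array 1.

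The 7 genes are not a random draw of clan 3. The array named 33 P450 genes of that clan, and 17 of them had a value, against 3769 of 6793 named genes (55.5%). The 10 outside the 7 were measured on arrays 1 and 2 alone. On array 1 their 9 clones ranged from -0.52 to 0.47 with a median of 0.11, and 6 were above 0. The highest of them, Cyp6a15Psi, is a pseudogene by its symbol, as is Cyp6a16Psi, which had no value. The 5 clones of the 7 genes on that array ranged from -0.84 to 1.23, also with a median of 0.11.

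Low values in the other clan 3 genes came from Cyp9f2, at -0.52 and -0.78 on arrays 1 and 2, and from Cyp310a1, at -1.52 on array 2. Cyp6a13 lay near 0 on both of its arrays, at 0.03 and 0.06. On array 2 the median of the 4 clones outside the 7 genes was -0.75, and that of all features was -0.15. The 4 clones of the 7 genes on that array had a median of -0.30. In each of these sets of 4 clones, 1 was above 0. On arrays 3 and 4 none of the clan 3 genes outside the 7 had a value, so the ratios of Cyp6d5, Cyp6d4 and Cyp6v1 there have no clan 3 neighbour to be set against.

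**Figure D5:**
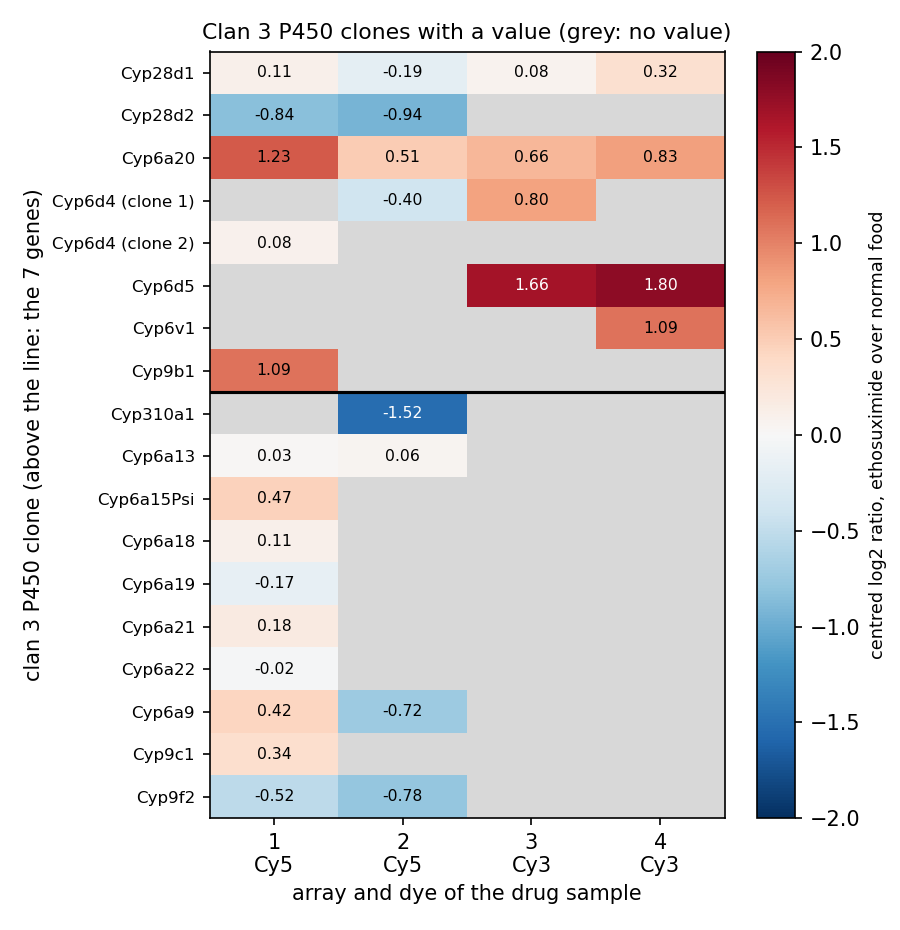
Centred log2 ratio of ethosuximide over normal food (colour and printed number) for each clan 3 P450 clone with a value (rows) on each array (columns, with the dye of the drug sample); grey cells had no value. The 10 clones below the line have values on arrays 1 and 2 alone, and Cyp6a20 and Cyp28d1 are the 2 rows filled on all 4 arrays.

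Outside the 7 genes, 65 P450 genes were on the array, 33 had a value and 5 were tested. Limma called 3 of these 5, of which 2 were higher and 1 was lower, against 14 of all 980 features tested (1.43%). The median of the 5 was 0.16, against 0.0037 over all features tested. These calls were known when the genes were chosen and are no independent evidence. The family 4 gene Cyp4e2 was at 1.49, 1.44, 1.13 and 1.82 on arrays 1 to 4, above Cyp6a20 on each. Under the other reading it would be at -1.13 and -1.82 on arrays 3 and 4, below Cyp6a20 at -0.66 and -0.83, and none of these 5 genes would be called. Cyp4p1 averaged 0.90 ± 0.23 (SD, n = 3), close to the mean of Cyp6a20. Cyp313a1 was on the other side, at -0.80 ± 0.19 (SD, n = 4). Cyp4ac1 (0.16 ± 0.26, n = 3) and Cyp4d21 (-0.15 ± 0.52, n = 4) were not called.

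Other genes of the P450 system were thinly covered. Of the 6 genes listed as redox partners, 2 were on the array and 1 had a value, Cyt-b5-r. It was listed by its symbol, but it encodes a cytochrome b5-related protein and not the cytochrome b5 reductase, so its ratio does not speak for the redox partners. It was at 0.53, 0.25, 0.25 and 0.13 on arrays 1 to 4. Cyt-b5-r was above 0 on each and was not called (limma adjusted p = 0.382). Of 6 regulators of detoxification genes, maf-S, a partner of the transcription factor CncC, averaged 0.16 ± 0.28 (SD, n = 3) and was not called. Keap1, the inhibitor of CncC, had values on arrays 1 and 2, at 0.39 and 0.65. Among the conjugating enzymes 1 of 3 tested glutathione S-transferases was called, GstD1 at 0.80 ± 0.15 (SD, n = 3). Over all features tested, limma called 1.43%. GstE12 averaged -0.25 ± 0.23 and GstT4 0.04 ± 0.24 (SD, n = 4 each). None of the 5 UDP-glycosyltransferases with a value was measured on 3 arrays. Jheh2, the 1 epoxide hydrolase on the array, was called in both of its clones, at 1.61 and 1.52. With the swapped columns taken as already turned, GstD1 would be at 0.31 and these clones of Jheh2 at -0.43 and 0.26. Limma would then call 0% of features.

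Markers of fly tissues were set beside these ratios. Of the fat body genes, Adh was at 0.44, 0.33, -0.53 and 0.47 on arrays 1 to 4, and the better covered of 2 clones of the lipoprotein gene apolpp at -0.11, 0.24, -0.07 and 0.40. The antennal genes went both ways, with Obp56d at 0.60 and 0.38 in its 2 clones and Obp57c and Obp19d at -0.67 and -0.33. The 5 photoreceptor genes tested had a median of -0.29 and ranged from -0.45 (chp) to 0.26 (Arr1), with inaD at -0.35, inaC at -0.29 and trpl at -0.28. The muscle genes Act88F and Mlc2 were at -0.43 and -0.21, and the glial gene Gs2 at -0.35. The 3 neuronal genes lay between -0.11 (Rab3) and 0.17 (Sap47), the midgut gene Amyrel at 0.09 ± 1.21 (SD, n = 3), and ocn, of the male reproductive tract, at 0.44. No Malpighian tubule gene was measured on enough arrays to be tested.

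Limma called 0 of the 20 marker clones tested. An unadjusted p under 0.05 was found for 8 of the 20 (40%), against 119 of all 980 features (12.1%). Antennal clones made up 4 of these 8. They were both clones of Obp56d, with means above 0, and those of Obp57c and Obp19d, with means below 0. Means were above 0 for 10 of the marker clones and below 0 for 10. Those below 0 included 4 of the 5 photoreceptor genes, both muscle genes and the glial gene. Whether a change in the makeup of the samples has a part in the ratio of Cyp6a20 was not tested.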

How the data were processed

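Each array gave 1 column of deposited values, taken as log2 ratios; the log base is an assumption, since the labels say only that the ratios are normalized. Per the labels and the series' design text, the authors quantified scans with GenePix Pro 6.0, normalized ratios in Acuity 4.0 and filtered spots (under 3% saturated pixels, R2 from 0.6, signal-to-noise from 3). Also given are a scan resolution of 10 µm, a minimum raw intensity of 100, a background multiple of 2, and the program SAM 2.21 with 100 permutations. Spot intensities were not used here, so the signal behind a ratio is unknown, and the number of arrays limits precision.

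Neighbouring spots had the same gene in 7558 of 7558 named pairs and were averaged. The platform annotation gave 15116 of 27648 spots 1 symbol, and 14894 were updated by Entrez number through RefSeq's Release 6 table. Arrays were centred on their medians over features with at least 3 arrays (0.74, 0.16, -0.24 and -0.63 after turning), because on deposited values a clone's mean depends on which array missed it and eBayes gave all features 1 variance. limma 3.58.1 in R 4.3.3 tested the mean against 0, two-sided, with Benjamini-Hochberg adjustment over 980 features at 0.05, after a test on simulated data.

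The genes, lists and settings, centring included, were chosen with earlier results of these data known. All 7 genes are named, as are the other P450 genes measured on at least 3 arrays and those nearest in pattern; genes of the other lists could be named where measured on at least 3 arrays. Keap1, Cyp12d1-d and clan 3 genes on fewer arrays were named after their values were seen. Alternatives changed the centring, scaling, dye term, moderation, minimum of arrays, spot pairs, reading of the swapped columns and arrays included.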

Additional observations from a re-analysis of the deposited data

Results flagged for a closer look

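The check covered 9 clones measured on all 4 arrays, from P450 genes and the genes listed with the P450 system. Tissue markers and the features nearest in pattern were not checked. Of the 9 clones, 2 had 1 array far from the others. Cyp313a1, a P450 gene outside the 7, was at -0.89, -0.89 and -0.90 on arrays 1 to 3 and at -0.51 on array 4, a gap of 0.968 of its whole range. GstT4, a glutathione S-transferase, was at 0.14, 0.14 and 0.21 on arrays 1 to 3 and at -0.32 on array 4, a gap of 0.862 of its range. Chance gives about 1 such case in 20. Cyp6a20 and Cyp28d1, with gaps of 0.563 and 0.526, were not among them.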

How the results depend on the processing

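The mean of Cyp6a20 kept its sign under all 14 alternatives, from 0.06 to 0.91, but its call was kept under 6 and lost under 8. The dye term, ordinary test, minimum of arrays and spot pairs left its mean unchanged, so its sign could not change there. The count of features called, 14 as reported, was 5 on deposited values, 28 with a dye term and 0 in the ordinary test or with features on 2 arrays included (105 and 236 had an unadjusted p under 0.05). With the swapped columns taken as already turned it was 0 after centring (86 at an unadjusted p under 0.05) and 32 on deposited values, all higher, where the median of all features was 0.40. Leaving out 1 array gave 5 to 23 features, with 23 in the fit without array 2, where all features had 1 shared variance. The count of the 7 genes called, 1 as reported, was 0 in those same settings except with the dye term, which kept it, and 0 to 1 with 1 array left out. The count of other P450 genes called, 3 as reported, was 1 on deposited values and 0 in the ordinary test, with 2 arrays or under the other reading, and 1 to 3 with 1 array left out. The count for the dye, 2 as reported, was 31 on deposited values, 1 with all 4 arrays and 0 to 47 with 1 array left out. Under the other reading Cyp6d4's first clone went to -0.60 (-0.40 uncentred), Cyp6d5 to -1.73 (-1.29), Cyp6v1 to -1.09 (-0.45) and Cyp28d1 to -0.12 (0.32). With 1 array left out, the first Cyp6d4 clone ranged from -0.40 (without array 3) to 0.80, and Cyp28d1 from -0.0028 (without array 4) to 0.17. The cause of these changes was not tested. No paired analysis was possible because the 4 arrays form 1 group in which each array already pairs a drug sample with a normal food sample.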

Other observations

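On deposited values, where the arrays' offsets stay in, Cyp9b1 was at 1.83 in place of 1.09, the second Cyp6d4 clone at 0.82 in place of 0.08, Cyp28d2 at -0.44 in place of -0.89 and Cyp6v1 at 0.45 in place of 1.09. For these clones, measured on 1 or 2 arrays of 1 dye orientation, the offset of the array does not cancel. Over the 17 clone values of the 7 genes, paired spots differed by 0.009 to 0.908 with a median of 0.143.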
